A study of Mus musculus with 6 samples.

Results

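The genes described here handle iron inside the cell and across its membranes. They are the 9 genes Fth1, Ftl1, Ncoa4, Tfrc, Slc11a1, Slc11a2, Slc40a1, Ireb2 and Aco1, chosen by symbol and found by their Ensembl identifiers among the 26789 genes of the deposited table. Each was measured by RNA-seq in 6 libraries of P15 mouse microglia, the immune cells that live in the brain. The microglia came from the rostral nucleus of the solitary tract (NST), the brainstem region where taste fibers end. Controls (n = 3 libraries) were born to mothers on the control diet, and E3–E12 diet mice (n = 3 libraries) to mothers whose diet was low in sodium between E3 and E12. The labels name no strain, transgene or mutant allele, the study's methods name C57Bl/6 for controls elsewhere in the work, and males and females were both used. Each library pools the rostral NST of 6 littermates, so that 1 library stands for 1 litter. By the study's methods the cells were selected with magnetic beads against CD11b, whereas the deposited description names laser microdissection, so how they were isolated is uncertain.

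Iron enters most cells as transferrin bound to its receptor, leaves the endosome through a divalent metal transporter, and is either used, stored in ferritin or exported through ferroportin. In macrophages, which include microglia, iron also arrives in engulfed material and is recovered from the phagosome. A pair of iron regulatory proteins adjusts this balance after transcription: when iron is scarce they bind a hairpin in the messenger RNA, the iron-responsive element. Bound in the 5′ UTR the hairpin blocks translation, and bound in the 3′ UTR it protects the transcript from decay. Control of translation is not seen in the level of a messenger RNA, which is what these libraries measure.

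The hairpin separates the 9 genes by how they can be controlled, so the sites found in them are shown. The GENCODE M21 transcripts (build GRCm38) were searched on the sense strand for the 6-base loop CAGTGN, in which N was A, C or T, closed by 5 base pairs above a bulged C and by at least 4 of 6 pairs below it, counting G-T pairs. Such a site was present in the UTRs of 4 of the 9 genes, against 14 of 21725 genes with a protein-coding transcript (0.0644%). The 14 include these 4. The form searched for is that of the hairpin of iron genes, so the contrast was built in and is not a test. The minimum of 4 lower pairs was set after a first search with 5 had missed the site in Fth1. With at least 5, 3 of the 9 genes and 7 of all genes held a site. A match is a description of the sequence and not a measured binding site. Each is printed 5′ to 3′ along the transcript, with the loop in capitals.
Fth1 5′ UTR: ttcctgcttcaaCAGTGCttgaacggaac
Ftl1 5′ UTR: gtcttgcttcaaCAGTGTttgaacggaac
Slc40a1 5′ UTR: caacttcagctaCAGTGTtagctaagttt
Tfrc 3′ UTR, first site: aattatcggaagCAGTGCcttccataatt
Tfrc 3′ UTR, the second site: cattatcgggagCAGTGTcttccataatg
Tfrc 3′ UTR, the third site: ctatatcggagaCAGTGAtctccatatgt
Tfrc 3′ UTR, the fourth site: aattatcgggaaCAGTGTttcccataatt

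The Fth1 site lies at chr19:9982732-9982760 on the plus strand. The Ftl1 site lies at chr7:45459779-45459807 on the minus strand, and that of Slc40a1 at chr1:45925465-45925493, also on the minus strand. Those of Tfrc lie on the plus strand at chr16:32631219-32631247, chr16:32631598-32631626, chr16:32631663-32631691 and chr16:32631710-32631738, and begin 886, 1265, 1330 and 1377 bases after the stop codon. Each site lies within 1 exon. No site of this form was found in the reference transcripts of Ncoa4, Slc11a1, Slc11a2, Ireb2 and Aco1, which says only that these letters are not in their UTRs as annotated there. A hairpin of another form would have been missed, so the search does not show that these genes lack one.

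The libraries held the RNA of microglia along with that of other cells. All 12 of 12 microglial markers, among them P2ry12 and Tmem119, were above 0 in every library, and their summed normalized counts ranged from 108947 to 555466 in controls and from 105790 to 351604 in E3–E12 diet mice. All 8 markers of border-associated macrophages were also present, summing to between 8648 and 64316 in controls and between 11601 and 19236 in E3–E12 diet mice. Markers of oligodendrocytes (5080 to 43227 and 5955 to 23688), endothelial cells (5396 to 18949 and 15755 to 26009) and choroid plexus (574 to 19112 and 58.0 to 40515) were present at levels that differed widely between libraries. Astrocyte markers summed to between 1835 and 9217 in controls and between 4689 and 9721 in E3–E12 diet mice, and neuronal markers to between 754 and 1630 and between 840 and 1828. Erythroid markers, of which 6 of 7 were in the table, stayed low (12.7 to 220.4 and 22.0 to 95.5), with Hba-a1, Hba-a2, Hbb-bt, Alas2 and Slc4a1 each at 0 in at least 1 library. Neutrophil markers summed to between 429 and 3243 in controls and between 640 and 826 in E3–E12 diet mice. Other markers at 0 in at least 1 library were Elane (neutrophils), Mag (oligodendrocytes), Ly6c1 (endothelium), Gfap (astrocytes), Folr1, Clic6, Kcne2 and Aqp1 (choroid plexus) and Syt1, Rbfox3, Stmn2 and Slc17a6 (neurons). Control replicate 2 stood apart: it had the highest summed level of microglial, border-associated macrophage and neutrophil markers, the largest total (17204618 normalized counts against 9407141 to 14656956 in the others) and the most genes at 0 (10640 against 3459 to 7135). It also had the lowest summed level of endothelial (5396), astrocyte (1835), neuronal (754) and erythroid (12.7) markers. Its oligodendrocyte and choroid plexus markers were neither the highest nor the lowest.

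None of the 9 genes passed the test of a difference between diets. All 9 passed the minimum of a mean of 10 normalized counts, as did 18007 genes in all, and each was compared on the log2(normalized count + 1) scale with limma. After Benjamini-Hochberg adjustment in limma, 0 of the 9 passed the study's threshold of 0.1, against 0 of 18007 genes (0%), and the adjusted p of each of the 9 was 0.999. The study applied this threshold with another test, DESeq2, and listed genes past it in both directions. The 0 of 18007 holds for limma on the deposited values and not for the study's test. Likewise 0 of the 9 had an unadjusted p under 0.05 in limma, against 1.82% of all genes tested (0.866% lower and 0.95% higher). The mean log2 level of 5 of the 9 was higher in E3–E12 diet mice and that of 4 was lower, with a median log2 fold change of 0.28, where 54.4% of all genes were higher and their median was 0.087. The standard error was larger than the log2 fold change itself in 8 of the 9 genes, and the median standard error was 0.74 (0.85 over all genes). The groups overlapped in 8 of the 9. The exception was Ireb2, with every E3–E12 diet library below every control, a pattern found in 2.91% of all genes (2.99% for the opposite pattern and 5.9% for either). In a bulk library, fewer cells of a type and less RNA per cell cannot be told apart.

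**Figure D1:**
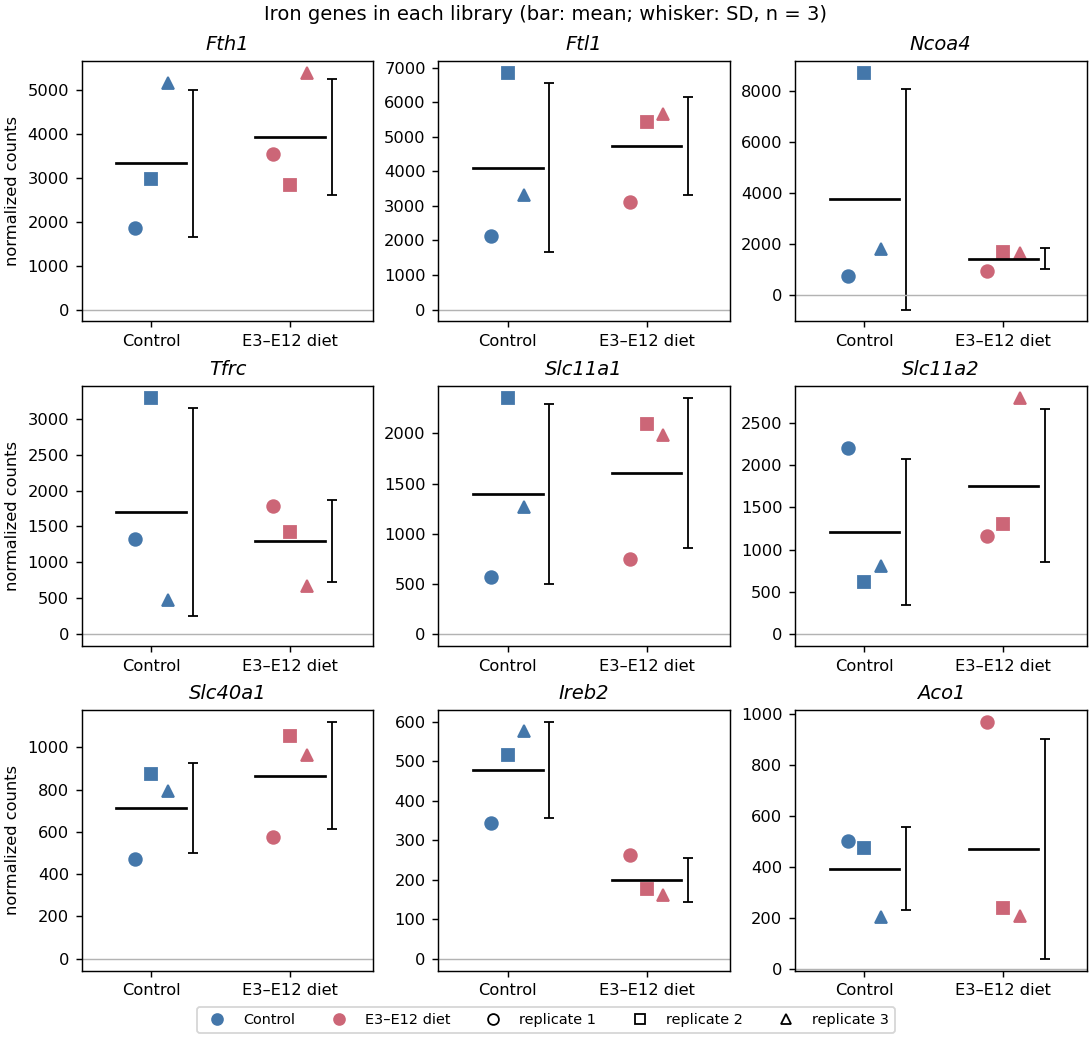
Normalized counts of each of the 9 iron genes in the 3 control and 3 E3–E12 diet libraries, with the scale of each panel its own; points are libraries, horizontal bars group means and whiskers the SD. The E3–E12 diet points of Ireb2 lie between 160.0 and 263, below all 3 controls, whereas the groups overlap in the other 8 genes.

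Ferritin is a hollow shell of heavy and light chains in which iron is held as a mineral. Fth1, the heavy chain with the ferroxidase activity that loads the shell (chr19:9980598-9985098, plus strand), had 1852, 2982 and 5157 normalized counts in the controls (replicates 1, 2 and 3, the order used throughout). Its E3–E12 diet libraries, ordered likewise, had 3542, 2832 and 5392. The highest library of each group was replicate 3 and the groups overlapped, with means of 3330 ± 1680 in controls and 3922 ± 1321 in E3–E12 diet mice (SD, n = 3). The log2 fold change was 0.31 (standard error 0.65, 95% interval -1.24 to 1.85, exact two-sided permutation p = 0.6). It was -0.052 without control replicate 1. Of the 50-base windows of the Fth1 transcript, 6.59% recur in a single other annotated gene, Gm6977. A separate processed copy, Fth-ps2, had between 32.4 and 317.6 normalized counts.

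Ftl1, the light chain that favors mineral growth inside the shell (chr7:45457944-45459884, minus strand), had 2134, 6845 and 3325 normalized counts in the 3 controls. The E3–E12 diet libraries had 3097, 5428 and 5665.5. Control replicate 2 was the highest library and control replicate 1 the lowest, so that the controls enclosed all E3–E12 diet libraries. The means were 4101 ± 2450 and 4730 ± 1419 (SD, n = 3), a log2 fold change of 0.32 (standard error 0.67, 95% interval -1.29 to 1.94, exact permutation p = 0.7), and of -0.063 without control replicate 1. Of its 50-base windows 90.6% recur in 17 other annotated genes, among them Ftl1-ps1, Gm15590 and the opposite-strand Gm10252, so its value is uncertain. In the table Ftl1-ps1 had at most 103 normalized counts and Gm15590 at most 18.9.

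Ncoa4 encodes the receptor that carries ferritin to the lysosome, where its iron is released (chr14:32159865-32179855, plus strand). It had 748, 8717 and 1812 normalized counts in the 3 controls, against 962, 1702 and 1636 in E3–E12 diet mice. A single library, control replicate 2, was far above the other 5, in which the groups overlapped. The means of 3759 ± 4326 and 1433 ± 409.8 (SD, n = 3) gave a log2 fold change of -0.71 (standard error 0.98, 95% interval -3.05 to 1.62, exact permutation p = 0.7). The difference turned to 0.25 without control replicate 2. Of the 50-base windows of Ncoa4, 43.1% recur in Gm6768, which had 9.95 normalized counts in control replicate 2 and was listed at 0 in the other 5 libraries.

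Iron uptake was represented by the transferrin receptor. Tfrc, which brings transferrin-bound iron into the cell (chr16:32608920-32632794, plus strand), had 1323, 3295 and 472 normalized counts in the 3 controls. The 3 E3–E12 diet libraries had 1789, 1425 and 667. All of the E3–E12 diet libraries fell within the range of the controls. The means were 1697 ± 1448 and 1294 ± 572 (SD, n = 3), and the log2 fold change was -0.092 (standard error 0.88, 95% interval -2.19 to 2.004, exact permutation p = 1.0). Its sign was not stable, at 0.59 without control replicate 2 and 0.16 after quantile normalization.

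Slc11a1 and Slc11a2 are related divalent metal transporters. Slc11a1, which moves metal ions out of the phagosome of macrophages and limits the growth of engulfed bacteria (chr1:74375195-74386062, plus strand), had 569, 2351 and 1264 normalized counts in the 3 controls. The 3 E3–E12 diet libraries had 750.2, 2099 and 1983, and replicate 1 was the lowest in each group. The means of 1395 ± 898 and 1611 ± 747 (SD, n = 3) gave a log2 fold change of 0.29 (standard error 0.78, 95% interval -1.58 to 2.17, exact permutation p = 0.7). It was -0.24 without control replicate 1. Slc11a2, which releases iron from the endosome after transferrin uptake (chr15:100387898-100425072, minus strand), had 2204, 621 and 803 normalized counts in the controls, against 1163, 1306 and 2798 in E3–E12 diet mice. In contrast to most of the other genes, control replicate 1 was the highest control and control replicate 2 the lowest. The means of 1209.5 ± 866 and 1756 ± 905 (SD, n = 3) gave the most positive log2 fold change of the 9, 0.65 (standard error 0.74, 95% interval -1.12 to 2.42, exact permutation p = 0.4). It ranged from 0.26 to 1.20 as each library was left out in turn. The opposite-strand gene Gm5475 overlaps part of its exons and had at most 131 normalized counts.

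Slc40a1 encodes ferroportin, the exporter through which cells release iron (chr1:45908068-45926523, minus strand). It had 471, 873 and 791 normalized counts in the 3 controls, against 577, 1055 and 964 in E3–E12 diet mice. It was the steadiest of the 9 genes, with a highest library only 2.24 times the lowest, and replicate 1 was the lowest in each group. The means of 712 ± 212 and 865 ± 254 (SD, n = 3) gave a log2 fold change of 0.28 (standard error 0.59, 95% interval -1.14 to 1.70, exact permutation p = 0.5). Each library left out in turn gave between 0.011 and 0.55.

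Ireb2 and Aco1 encode the iron regulatory proteins themselves. Ireb2, iron regulatory protein IRP2, which is degraded when iron is plentiful (chr9:54863789-54912530, plus strand), had 343, 514 and 576 normalized counts in the 3 controls. The 3 E3–E12 diet libraries had 263, 176 and 160.0. Every E3–E12 diet library was below every control, and the means were 478 ± 121 in controls and 199.9 ± 55.6 in E3–E12 diet mice (SD, n = 3), or 0.42 of the control level as a ratio on the log scale. The log2 fold change was -1.25 (standard error 0.57), and its 95% interval of -2.61 to 0.11 included 0. The exact two-sided permutation test gave p = 0.1, the smallest that 3 libraries against 3 allow. The unadjusted p from limma was 0.0656, at or below which 2.62% of all genes tested lay, and after Benjamini-Hochberg adjustment in limma p was 0.999 (0.440 to 1.0 over the alternative analyses). A log2 fold change as low or lower was found in 6.60% of all genes tested. No 50-base window of the Ireb2 transcript recurs in another annotated gene.

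The log2 fold change of Ireb2 lay between -1.48 and -1.10 as each library was left out. Its groups did not overlap, so they had to stay apart and the sign had to hold each time. Only the size of the difference could change. The groups also stayed apart after quantile normalization and at equal totals. When each library was centred on the mean log2 level of the 12 microglial markers, however, the log2 fold change was -0.98 (standard error 1.18) and the groups overlapped. Summed microglial markers were lowest in control replicate 1 and E3–E12 diet replicate 1, and their part in the result was not tested.

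Aco1 encodes IRP1, which doubles as the cytosolic aconitase when it carries an iron-sulfur cluster (chr4:40143081-40198338, plus strand). It had 501, 475 and 205 normalized counts in the 3 controls, against 969, 238 and 207 in E3–E12 diet mice. E3–E12 diet replicate 1 was the highest library by a wide margin, and the groups overlapped. The means of 394 ± 164 and 471 ± 431 (SD, n = 3) and the log2 fold change of -0.0099 (standard error 0.82, 95% interval -1.97 to 1.95, exact permutation p = 1.0) showed no direction. Without E3–E12 diet replicate 1 it was -0.72, and without E3–E12 diet replicate 3 it was 0.39. In E3–E12 diet replicate 1, choroid plexus markers also summed to their highest value, 40515, against 574 to 19112 in controls, and their part in the result was not tested.

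**Figure D2:**
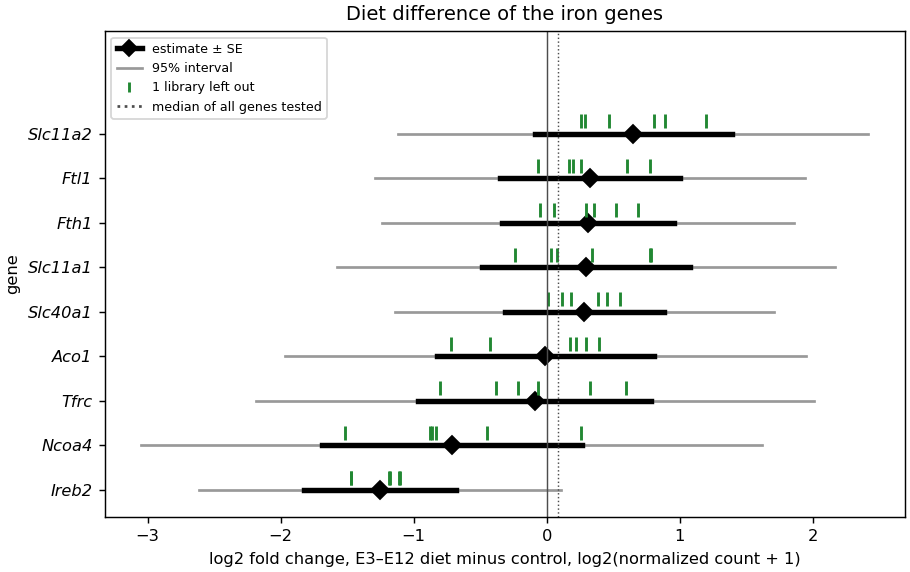
Log2 fold change of each iron gene, E3–E12 diet minus control, with its standard error (thick bar), 95% interval (thin line) and the values with 1 library left out (green ticks). Only the ticks of Slc11a2, Slc40a1 and Ireb2 stay on 1 side of 0, and every interval includes 0. The side of the Ireb2 ticks was fixed in advance, since its groups do not overlap.

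The 9 genes were not all high or all low in the same libraries. Control replicate 2 was the highest library for 4 of them (Ftl1, Ncoa4, Tfrc and Slc11a1) and the lowest for Slc11a2. Control replicate 1 was the lowest for 5 (Fth1, Ftl1, Ncoa4, Slc11a1 and Slc40a1). The ratio of the highest to the lowest library ran from 2.24 for Slc40a1 to 11.7 for Ncoa4. Control replicate 2 was also the library with the highest summed markers of microglia (555466) and border-associated macrophages (64316), and the part of these markers in the levels of the 4 genes was not tested.

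Levels were compared between genes per kilobase of the reference transcript, with each of the 6 libraries as a point. The ferritin chains were the most abundant, Ftl1 at 4562 ± 1884 and Fth1 at 3903 ± 1496 normalized counts per kilobase (SD over 6 libraries). Ftl1 was above Fth1 in 4 of 6 libraries and its value is uncertain, as most of its windows recur in other genes, so their order was not settled. Fth1 was above Slc11a1 in 6 of 6. A middle group followed, with Slc11a1 at 649 ± 323, Ncoa4 at 639 ± 745, Slc11a2 at 490 ± 280 and Tfrc at 306 ± 206 per kilobase. The mean of Ncoa4 rested on control replicate 2, at 2144 per kilobase against 184 to 446 in the other 5 libraries. Without that library Ncoa4 stood at 338 ± 119 and Slc11a2 at 547 ± 271 (SD over 5 libraries), which turns their order. Neighbors in this group changed places between libraries, with Ncoa4 above Slc11a2 in 2 of 6 and Tfrc above the next gene, Slc40a1, in 3 of 6. Slc40a1 stood at 234 ± 66.9 per kilobase. The regulators were the least abundant, Aco1 at 113 ± 77.0 and Ireb2 at 58.7 ± 30.1 per kilobase, and Aco1 was above Ireb2 in 5 of 6 libraries. The scale depends on the transcript taken: over the union of annotated exons, Fth1 stood at 2327 and Slc11a2 at 259 per kilobase.

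**Figure D3:**
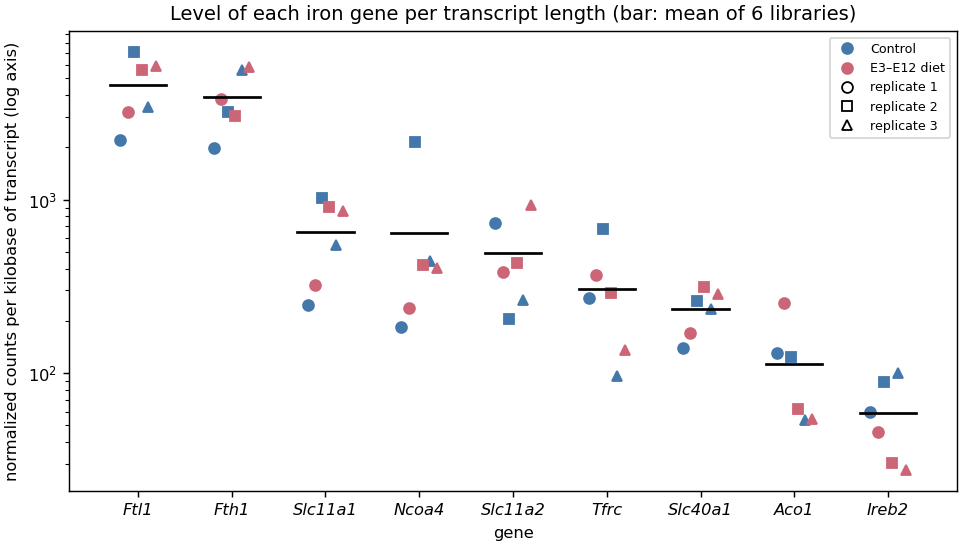
Normalized counts per kilobase of reference transcript (log axis) for the 9 iron genes in each of the 6 libraries, ordered by their mean (horizontal bar). Ftl1 and Fth1 lie above the other 7 genes in every library, and Ireb2 has the lowest mean, 58.7.

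Within a library, a log2 difference between 2 genes does not change when all values of the library are multiplied by 1 factor, and 2 such balances were compared between diets. Quantile normalization, which does more than this, gave differences between diets of -0.029 for the ferritin chains and -0.34 for uptake and storage. They were taken on normalized counts and not per length, so only their difference between diets is read. The balance of the ferritin chains, log2 of Fth1 minus log2 of Ftl1, rests on the uncertain value of Ftl1. It was -0.20, -1.20 and 0.63 in the 3 controls. Among E3–E12 diet mice it was 0.19, -0.94 and -0.071. The groups overlapped and their means differed by -0.015 (E3–E12 diet minus control, exact two-sided permutation p = 1.0), a difference that turned to 0.43 without control replicate 3. The balance of uptake and storage, log2 of Tfrc minus log2 of Fth1, pairs transcripts on which the iron regulatory proteins act in opposite ways. On Fth1 they act through the 5′ UTR on translation, which the level of its messenger RNA does not show. The balance of Tfrc to Fth1 was -0.49, 0.14 and -3.45 in the 3 controls, against -0.99, -0.99 and -3.01 in E3–E12 diet mice. The lowest library was replicate 3 in each group, and the means differed by -0.40 (exact two-sided permutation p = 0.6), or by 0.30 without control replicate 2.

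**Figure D4:**
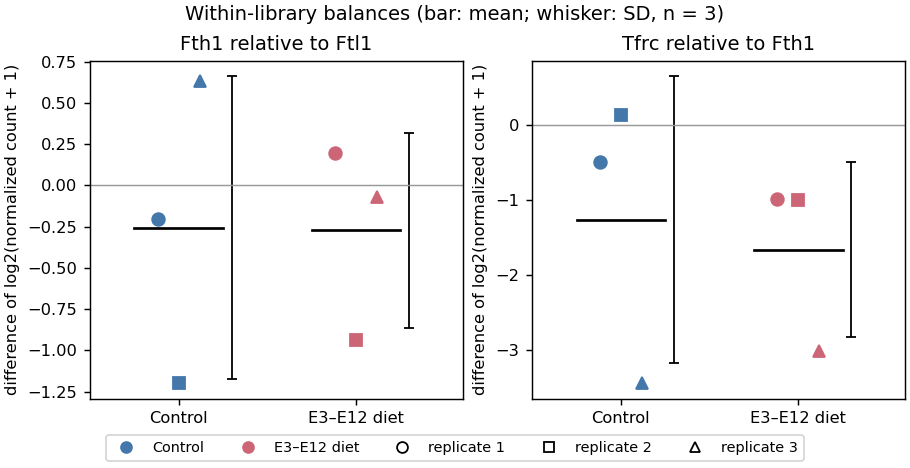
Log2 balances of Fth1 to Ftl1 (left) and Tfrc to Fth1 (right) in each library, on log2(normalized count + 1), with group means (horizontal bars) and SD (whiskers). The groups overlap in both panels, and the mean differences of -0.015 and -0.40 are smaller than the spread between libraries of either group.

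The wider iron and heme pathway was described with 7 lists holding 112 genes, of which 98 were tested. None passed an adjusted p of 0.1 in limma with Benjamini-Hochberg adjustment (0 of 98, against 0 of 18007), 51 were higher and 47 lower in mean log2 level, and the median log2 fold change was 0.038. An unadjusted p under 0.05 in limma was found for 1 of the 98, against 1.82% of all genes, and the groups did not overlap in 4 of 98 (4.08%, against 5.9% of all genes). Carriers and enzymes of transferrin iron were 7 higher and 8 lower of 15 tested, with a median log2 fold change of -0.036. Iron chaperones and ferritin receptors were 5 higher and 4 lower of 9 (median 0.10). Genes of the hepcidin axis, the hormone system that closes ferroportin, were 6 higher and 2 lower of 8 (median 0.18). These 8 lie upstream of hepcidin, and the hepcidin genes themselves were not among those tested. Of genes for heme uptake, breakdown and export 3 were higher and 9 lower of 12 (median -0.30), but 5 higher and 7 lower without control replicate 2 (median -0.035). Of those of heme synthesis 5 were higher and 7 lower of 12 (median -0.21, and 0.25 without E3–E12 diet replicate 2). Mitochondrial iron and iron-sulfur cluster genes were 15 higher and 12 lower of 27 (median 0.15), and ferroptosis genes, which repair or promote iron-dependent lipid damage, 10 higher and 5 lower of 15 (median 0.59, and 0.25 without control replicate 2). The other list medians also moved as single libraries were left out, from -0.35 to -0.043 for transferrin iron, -0.011 to 0.31 for chaperones and ferritin receptors, 0.052 to 0.28 for the hepcidin axis and 0.018 to 0.38 for the mitochondrial list. Their lowest values came without E3–E12 diet replicate 3, control replicate 2, control replicate 1 and control replicate 2.

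The gene with an unadjusted p under 0.05 was Aifm2, a ferroptosis suppressor, named here after its values were seen. It was low, with 2.26, 0 and 20.9 normalized counts in the 3 controls, against 58.8, 37.8 and 14.8 in E3–E12 diet mice, and its groups overlapped (log2 fold change 3.001, standard error 1.21). Its value in control replicate 2 was 0, and without that library the log2 fold change was 1.97. Of the genes whose groups did not overlap, 3 belonged to the mitochondrial and iron-sulfur list and 1 to the ferroptosis list.

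Glrx3, a cytosolic iron-sulfur glutaredoxin, had 309, 356 and 229 normalized counts in controls and 499, 427 and 392 in E3–E12 diet mice (log2 fold change 0.58, standard error 0.54). Each E3–E12 diet library was above each control, by a difference little more than its standard error. Slc3a2, the heavy chain of the cystine importer that feeds glutathione synthesis, had 517, 227 and 642 normalized counts in controls and 787, 698 and 1269.7 in E3–E12 diet mice. Again each E3–E12 diet library was above each control (log2 fold change 1.07, standard error 0.66, and 0.62 without control replicate 2). Both genes had an exact two-sided permutation p of 0.1, the smallest possible with 3 libraries against 3, and p = 0.999 in limma after Benjamini-Hochberg adjustment. When centred on microglial markers, the groups overlapped in both, as they did in Ireb2, and those of Glrx3 also overlapped at equal totals.

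**Figure D5:**
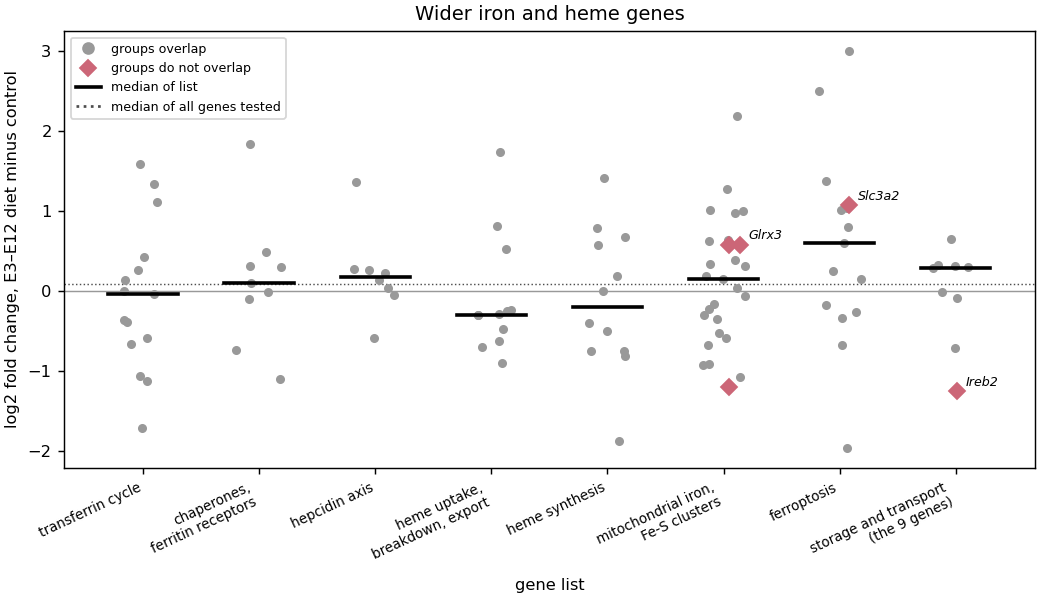
Log2 fold change, E3–E12 diet minus control, of each tested gene of the 7 wider lists and of the 9 storage and transport genes, with the median of each list (horizontal bar) and of all genes tested (dotted line). Diamonds mark genes whose groups do not overlap, of which Ireb2 (lower) and Slc3a2 and Glrx3 (higher) are labelled, and the points of every list lie on both sides of 0.

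The gene most like each member was taken as the tested gene with the highest Pearson correlation of log2 levels over the 6 libraries, and within a library all genes share its scaling, depth and mix of cells. These correlations are the highest among the tested genes with a symbol, leaving out the member itself, and describe only these libraries. They ran from 0.981 to 0.998. Nek9 followed Ftl1, Muc1 followed Aco1, Slc16a3 followed Ncoa4, Clta followed Slc11a1 and D430019H16Rik followed Tfrc. Ino80c was most like Fth1, Gm15638 most like Slc11a2 and 0610010K14Rik most like Slc40a1. The gene most like Ireb2, with a correlation of 0.981 over 6 libraries, was Zfp759, which had 23.2, 55.7 and 71.6 normalized counts in the 3 controls, against 9.08, 6.74 and 5.68 in E3–E12 diet mice.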

How the data were processed

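The authors deposited 1 table of normalized counts (a signal scaled between libraries) per Ensembl gene for 6 libraries, and per the labels' processing notes FastQC, STAR, featureCounts, DESeq2 and build GRCm38 were used, with no versions given. The name of the table mentions surrogate variables, and the study's methods do not describe such an adjustment. By those methods the RNA was amplified before library preparation. The study's methods give a range of reads per sample, but not the depth of each library. The deposited values are fractional and keep no step of 1 read, so the reads behind each value are unknown. No counting interval was computed, and precision was judged from the spread between libraries of 1 litter each. That spread also holds differences in dissection, mix of cells and amplification, and limma draws the variance of each gene toward that of the others. Had surrogate variables been removed from the values, the spread would be altered, which the p-values do not allow for. Columns were assigned by sample title, and 26507 of 26789 genes were matched to a symbol.

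Values were compared as log2(normalized count + 1) for 18007 genes whose mean reached 10, all 6 libraries together, with limma 3.58.1 (lmFit, eBayes) in R 4.3.3, two-sided, with Benjamini-Hochberg adjustment over all genes and the study's threshold of 0.1. Fold changes on this scale understate changes of low genes. The script was tested on simulated data. Single values were compared by exact permutation of the libraries. No count model was run, since the values are not counts. Pseudocounts of 0.5 and 10, a minimum mean of 100 or none, 3 scalings, array weights, a replicate block and each library left out were tried, and a mean-variance trend was added after seeing the data. Transcripts, exons and the 50-base windows came from GENCODE M21, with the principal transcript of each gene. The members and lists were chosen with earlier results of these data known. All 9 members are named. Of the wider lists the genes whose groups do not overlap are named, except items not reported here, and for each member the gene with the highest correlation.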

Additional observations from a re-analysis of the deposited data

How the results depend on the processing

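The read depth of each library was unknown, each group had 3 litters, and the mix of cells differed between libraries. Of 371 comparisons of a value with its alternative, 320 were rated the same, 27 reversed and 24 moved. Many of these could not come out otherwise. The filters, the mean-variance trend and the replicate block leave the log2 fold change of a single gene as it is. The number rated the same is therefore no measure of robustness. The rating was loose for counts, where a change within a set ratio was rated the same, as with 327 genes against 468 with the replicate block. None of the 9 iron genes passed the adjusted threshold under any alternative run. Genes with an unadjusted p under 0.05 numbered 327 in the analysis as reported, 156 with a minimum mean of 100, 491 after quantile normalization, 94 when centred on microglial markers and 1396 with the trend and array weights, which also called 4 genes at the adjusted threshold (none of them an iron gene). In limma, 1 of the iron genes (Ireb2) had an unadjusted p under 0.05 with a minimum mean of 100, with the trend and array weights and with the mean-variance trend added after seeing the data. The iron genes whose groups did not overlap numbered 2 after quantile normalization and 0 when centred on microglial markers, and those of the wider lists 7 after quantile normalization, 7 at equal totals and 1 of 98 when centred, where 6.85%, 5.83% and 1.44% of all genes tested did not overlap under these settings. The median log2 fold change of the wider lists was -0.00074 without a filter, 0.31 when centred and -0.0093 with the trend and array weights. Equal totals added 0.12 to the log2 fold change of each iron gene and centring 0.28, and moved the median of all genes from 0.087 to 0.20 and 0.36. The shifts turned Tfrc to 0.028 and 0.18 and Aco1 to 0.11 and 0.27, all below the shifted medians, so these turns follow from the scaling itself. Quantile normalization turned Tfrc to 0.16 and Aco1 to 0.12, and the trend and array weights turned Tfrc to 0.91, Aco1 to 0.25 and Fth1 to -0.20, and the cause was not tested.

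With 1 library left out, genes with an unadjusted p under 0.05 numbered between 276 and 551, iron genes with one between 0 and 1, iron genes without overlap between 1 and 3, and wider genes without overlap between 10 and 18, where 2 libraries against 3 leave 12.6% to 17.8% of all genes without overlap. The median log2 fold change ranged from -0.063 to 0.36 for the iron genes and from 0.021 to 0.17 for the wider lists. Single genes ranged from -0.052 to 0.69 (Fth1), -0.063 to 0.78 (Ftl1), -1.52 to 0.25 (Ncoa4), -0.81 to 0.59 (Tfrc), -0.24 to 0.78 (Slc11a1) and -0.72 to 0.39 (Aco1). Slc11a2, Slc40a1, Ireb2, Slc3a2 and Glrx3 kept their sign. For Ireb2, Slc3a2 and Glrx3 the sign was fixed in advance, since their groups did not overlap. The balances ranged from -0.49 to 0.43 (Fth1 to Ftl1) and from -1.49 to 0.30 (Tfrc to Fth1). The reversals of Fth1, Ftl1 and Slc11a1 came without control replicate 1, that of Ncoa4 without control replicate 2, those of Tfrc without control replicate 2 (0.59) or E3–E12 diet replicate 3 (0.33), and those of Aco1 without control replicates 1 or 2 (0.22, 0.18) or E3–E12 diet replicates 2 or 3 (0.29, 0.39).

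Same-numbered libraries deviated from their group means with correlations of 0.260, 0.0348 and 0.142 across 18007 genes. The labels do not say what libraries of the same number share, and the main fit did not pair them. With the replicate number as a block, 0 genes passed the adjusted threshold, 468 had an unadjusted p under 0.05, and the smallest adjusted p of an iron gene was 0.980 (limma). The standard error fell for most of the iron genes, as for Tfrc from 0.88 to 0.65. It rose for Slc11a2 and for Ireb2, in the latter from 0.57 to 0.61. The block changed no call at the adjusted threshold. With 1 library of each diet per block, the fold changes had to stay as they were.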
